A study of Mus musculus with 23 samples.

Results

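The comparison described here was between 2 libraries of E6.5 epiblast from embryos of oocytes that lacked DNMT3A and DNMT3B (matDKO/CAST) and 3 libraries of E6.5 epiblast from wild-type B6/CAST embryos. It was made over the autosomal windows of the deposited methylation table that carried a value in all 5 libraries, which were 196459 of 320494 windows on chromosomes 1 to 19 (61.3%). The 5 libraries were 5 of the 23 samples of the series, and the 3 CAST/B6 E6.5 epiblast libraries, from the reciprocal wild-type cross, served as an outside reference. Crosses are written with the mother before the father, so that B6/CAST embryos had a C57BL6/Babr mother and a CAST/Ei father. The matDKO/CAST embryos came from mothers floxed on each copy of Dnmt3a and Dnmt3b and carrying Zp3-cre, which deletes both genes in the growing oocyte, and from CAST males. The embryos themselves were Dnmt3a -/+ and Dnmt3b -/+, with the missing copy inherited from the mother, so that an effect of the embryo's own gene dose and an effect of the missing oocyte methylation cannot be told apart here. The mothers of the matDKO/CAST embryos carried 129 as well as C57BL6/Babr alleles, and this strain difference is likewise confounded with the groups. Each library was made by post-bisulphite adaptor tagging (PBAT) from part of a chromatin pool of 4 epiblasts, which were dissected by hand from the extra-embryonic ectoderm (ExE). A replicate is therefore a pool of embryos, and p-values measure the spread between these pools.

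DNA methylation in mammals is placed mainly on the cytosines of CpG dinucleotides. DNMT3A and DNMT3B are the enzymes that add it to unmethylated DNA, and DNMT1 copies it when the DNA is replicated. The growing oocyte methylates the bodies of its transcribed genes, with DNMT3A and its cofactor DNMT3L. After fertilization most of the methylation inherited from sperm and oocyte is lost, and around implantation the epiblast gains new methylation over nearly the whole genome, with CpG islands left out. Germline differentially methylated regions (gDMRs) of imprinted genes are the classical exception, since they keep the mark of one parental allele through this period.

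Each window was drawn by the authors to hold 100 CpG positions and had a median of 58 CpG dinucleotides and 5571 bp, so that a short window is rich in CpGs and a long window is poor in them. Values are percentages of methylated calls. In every list of values below, the matDKO/CAST libraries are replicates 1 and 3, in that order. The B6/CAST libraries are replicates 1 and 3, followed by a library here called unnumbered. The column of that library carried a replicate number found in none of the group's labels. The number of reads behind a window is unknown, and the libraries were sparse to different degrees: matDKO/CAST replicate 3 had a value in 231496 autosomal windows and B6/CAST replicate 1 in 319423. Over windows, the correlation between the matDKO/CAST libraries was 0.64, against 0.81 to 0.84 between B6/CAST libraries. The tissue was checked at Elf5, a trophoblast transcription factor gene whose promoter is methylated in the embryo proper and not in ExE. Its window on chr2:103424112-103426923 was at 58.3% and 50% in matDKO/CAST epiblast and at 62.2%, 42.5% and 61.0% in B6/CAST epiblast, and from 13% to 16.7% in the matDKO/CAST ExE libraries. Wild-type ExE was at 10.7% and 10.8% in B6/CAST and at 50% and 12.9% in CAST/B6, so that 1 ExE library lay within the range of the epiblast. Another Elf5 window (chr2:103407838-103413656) was methylated in wild-type ExE too, at 69.9% to 85.2%. The promoter of Pou5f1, a pluripotency factor gene, is known to be kept unmethylated in the epiblast. Its window on chr17:35505630-35507484 was at 22.8% and 0% in matDKO/CAST epiblast against 2.56%, 10% and 1.85% in B6/CAST epiblast, and from 8.70% to 38.3% in matDKO/CAST ExE. At this window matDKO/CAST replicate 1 and B6/CAST replicate 3 thus lay within that ExE range. Another Pou5f1 promoter window (chr17:35507539-35510354) was methylated in B6/CAST epiblast, at 49.6%, 64.0% and 41.4%. It was at 62.5% and 15.4% in matDKO/CAST epiblast and from 16.1% to 23.7% in matDKO/CAST ExE. The promoter windows of Nanog and Dppa3, also planned as markers, had no value in matDKO/CAST replicate 3. The part of other tissue in the results was not tested.

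The DNA behind the main results is shown first, as 6 stretches of 300 bases of the GRCm38 plus strand, written 5′ to 3′, with the CpGs in capitals. Each was taken from a window named below, outside annotated exons, and was the stretch of that window richest in CpGs. Those of the Igf2r intron near the start of Airn (chr17:12742192-12742491, 26 CpGs) and of Snrpn (chr7:60004602-60004901, 15 CpGs, 148 bp from the start of Snurf) lie in maternal gDMRs and stayed low in matDKO/CAST epiblast. The stretch upstream of H19 (chr7:142580081-142580380, 18 CpGs, 1938 bp from the H19 start) lies in a region methylated on the paternal allele. The Acvr2b intron (chr9:119418115-119418414, 16 CpGs) and an intergenic window of chromosome 15 (chr15:68633163-68633462, 10 CpGs) are regions outside known imprinted genes with a low value in both matDKO/CAST libraries. The window over the starts of Zfp934 and Zfp935 (chr13:62557041-62557340, 18 CpGs, 1171 bp from the Zfp935 start) had the largest difference in the other direction.
Igf2r intron, Airn start: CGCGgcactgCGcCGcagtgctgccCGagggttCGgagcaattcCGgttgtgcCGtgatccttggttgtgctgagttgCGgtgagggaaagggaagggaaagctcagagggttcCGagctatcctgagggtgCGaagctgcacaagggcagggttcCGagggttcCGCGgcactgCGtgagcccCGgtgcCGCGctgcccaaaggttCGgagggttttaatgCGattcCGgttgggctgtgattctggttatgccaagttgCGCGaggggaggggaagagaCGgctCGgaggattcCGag
Snrpn: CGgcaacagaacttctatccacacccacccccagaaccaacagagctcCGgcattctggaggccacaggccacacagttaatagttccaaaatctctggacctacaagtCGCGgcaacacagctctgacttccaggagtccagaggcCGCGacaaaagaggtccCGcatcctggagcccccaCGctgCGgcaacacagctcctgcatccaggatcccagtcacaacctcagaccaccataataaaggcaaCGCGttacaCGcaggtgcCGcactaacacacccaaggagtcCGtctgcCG
H19 upstream: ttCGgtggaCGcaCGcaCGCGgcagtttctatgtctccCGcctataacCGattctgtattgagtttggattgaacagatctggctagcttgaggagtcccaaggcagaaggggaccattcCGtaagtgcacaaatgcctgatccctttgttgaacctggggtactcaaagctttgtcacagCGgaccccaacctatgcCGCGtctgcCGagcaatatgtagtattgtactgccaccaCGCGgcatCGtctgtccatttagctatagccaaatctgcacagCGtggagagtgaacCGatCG
Acvr2b intron: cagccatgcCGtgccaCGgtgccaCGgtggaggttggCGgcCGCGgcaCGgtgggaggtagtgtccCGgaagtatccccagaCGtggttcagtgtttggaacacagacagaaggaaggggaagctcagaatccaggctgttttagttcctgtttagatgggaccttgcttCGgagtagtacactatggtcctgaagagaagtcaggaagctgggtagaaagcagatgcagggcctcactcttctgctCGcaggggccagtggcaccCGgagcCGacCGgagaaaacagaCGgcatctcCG
intergenic, chromosome 15: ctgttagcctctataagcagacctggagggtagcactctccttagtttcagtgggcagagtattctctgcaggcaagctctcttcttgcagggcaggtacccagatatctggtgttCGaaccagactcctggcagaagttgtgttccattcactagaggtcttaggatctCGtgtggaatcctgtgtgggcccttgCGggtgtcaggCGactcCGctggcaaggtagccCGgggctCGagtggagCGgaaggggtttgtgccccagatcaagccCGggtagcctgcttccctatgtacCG
Zfp934/Zfp935: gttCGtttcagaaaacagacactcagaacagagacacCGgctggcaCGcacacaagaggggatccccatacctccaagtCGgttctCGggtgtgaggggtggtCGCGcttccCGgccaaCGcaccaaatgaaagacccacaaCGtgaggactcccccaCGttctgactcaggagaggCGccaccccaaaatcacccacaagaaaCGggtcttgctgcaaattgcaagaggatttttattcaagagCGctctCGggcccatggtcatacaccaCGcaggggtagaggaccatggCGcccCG
The stretches held 86.7 CpGs per kb near Airn, 50 at Snrpn, 60.0 upstream of H19, 53.3 in Acvr2b, 60.0 at Zfp934/Zfp935 and 33.3 on chromosome 15. Among these stretches, each the densest of a chosen window, imprinted and other ones overlapped in CpG density, and density was not compared beyond them.

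Most of the genome was methylated in matDKO/CAST epiblast, at a lower level than in wild type. The library means over all 196459 windows were 53.5% and 51.8% in matDKO/CAST and 64.6%, 69.9% and 73.4% in B6/CAST. The groups did not overlap, and the difference in means (52.7% ± 1.23, SD, n = 2, against 69.3% ± 4.45, SD, n = 3) was -16.6 points. The matDKO/CAST mean was 76.0% of the B6/CAST mean. With 2 against 3 libraries the two-sided exact permutation test cannot give a p below 0.2, and it gave 0.2. The CAST/B6 libraries were higher than all B6/CAST libraries, at 78.1%, 77.3% and 78.1%. Highly methylated windows were fewer in matDKO/CAST, and windows below 20% were more frequent. Windows below 20% made up 9.49% and 10.8% of the matDKO/CAST libraries and 7.45%, 7.31% and 7.12% of the B6/CAST libraries. Windows at 80% or more made up 9.88% and 10.2% in matDKO/CAST, and 24.3%, 41.0% and 52.1% in B6/CAST. The most frequent class in matDKO/CAST was 50 to 60%, with 19.9% and 18.9% of windows.

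**Figure D1:**
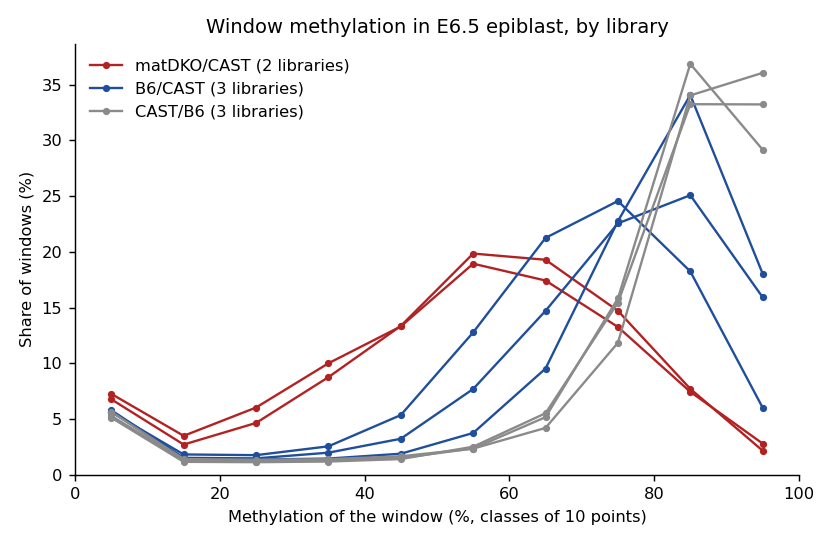
Share of the 196459 windows (vertical axis, percent) in each class of 10 points of window methylation (horizontal axis), with 1 line per library of E6.5 epiblast, coloured by cross. The matDKO/CAST lines peak at 50 to 60%, with 19.9% and 18.9% of windows, and the wild-type lines peak at higher methylation.

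Both matDKO/CAST libraries lay below all 3 B6/CAST libraries in 96976 windows (49.4%) and above all 3 in 1540 windows (0.784%). For gene bodies, taken as the mean over at least 3 windows centred in a protein-coding gene, the counts were 9347 of 10840 below (86.2%) and 17 above (0.157%). The genes of the deleted enzymes were lower in matDKO/CAST as well. The gene body of Dnmt3a was at 64.1% and 59.9% in matDKO/CAST and 73.9%, 77.1% and 76.2% in B6/CAST, and that of Dnmt3b at 56.7% and 51.0% against 60.8%, 63.4% and 64.6%. They kept 81.9% and 85.6% of the B6/CAST level. These values do not check the deletion, which was made in the mother's oocyte and is not read by methylation.

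Maternal gDMRs stood out as regions that stayed low. They were found without the E6.5 libraries, as windows of wild-type E7.5 epiblast in which the maternal allele exceeded the paternal allele by at least 50 points on average and at least 30 points in each of 4 libraries. The 19 such windows corresponded to 7 E6.5 windows of 6 loci with values in all 5 libraries. The mean over the loci was 13.9% and 5.13% in the matDKO/CAST libraries and 54.1%, 53.8% and 40.2% in the B6/CAST libraries. Every matDKO/CAST library was far below every B6/CAST library. The difference in means was -39.8 points, and matDKO/CAST retained 19.3% of the B6/CAST level, against 76.0% over all windows (exact permutation p = 0.2, the smallest possible). In limma none of the 7 windows passed the adjusted threshold of 0.05, and neither did any other window.

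The loci were classical imprinting centres that carry methylation on the maternal allele. At Snrpn and Snurf, whose gDMR is the imprinting centre of the Prader-Willi domain (chr7:60002887-60005093, overlapping the start of Snurf), methylation was 7.72% and 8.33% in matDKO/CAST and 44.5%, 56.9% and 35.9% in B6/CAST. At the intron of Igf2r that holds the promoter of the silencing noncoding RNA Airn (chr17:12742192-12744741), it was 9.76% and 21.4% against 54.9%, 92.3% and 68.4%. In the Kcnq1 intron next to the start of the noncoding RNA Kcnq1ot1 (chr7:143295618-143296400), it was 33.7% and 0% against 70.2%, 83.3% and 57.4%. These 3 loci separated the groups completely, although the matDKO/CAST libraries differed from each other by up to 33.7 points.

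The gDMR of Zrsr1 inside Commd1 (chr11:22972202-22972876) read 0% in both matDKO/CAST libraries and 64.7%, 13.9% and 30.8% in B6/CAST. Gnas, which encodes the stimulatory G protein alpha subunit and has several promoters of opposite imprint, contributed 3 windows. Methylation was 18.7% and 0% against 55.7%, 52.8% and 46.2% at chr2:174297623-174298680, which covers a start of Gnas. At the nearby chr2:174299392-174300022 it was 22.9% and 0% against 64.2%, 40.9% and 22.6%, the only one of these 7 windows in which the groups overlapped. At the start further downstream (chr2:174327582-174328370) it was 11.6% and 1.02% against 30.3%, 29.5% and 14%.

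A looser rule, chosen after the data were seen, asked for at least 1 E7.5 library of each cross in place of all 4. It gave 10 windows of 8 loci, with means of 25% and 4.75% in matDKO/CAST against 57.1%, 62.8% and 43.6%. A further window of Gnas (chr2:174298681-174299391) was at 4.35% and 5.56% against 65.4%, 79.2% and 48.5%. The added loci Mest and Slc38a4 differed between the matDKO/CAST libraries. Mest, a growth-related imprinted gene (start at chr6:30737610-30738287), was at 65.4% in replicate 1 and 0% in replicate 3, against 69.5%, 78.9% and 59.0%. Slc38a4, which encodes an amino acid transporter (chr15:97054601-97055699, 257 bp from its start), was at 56.5% and 5.33% against 61.1%, 90% and 44.3%. At both loci replicate 1 lay above a B6/CAST library, so that the groups overlapped. Peg10, a retrotransposon-derived imprinted gene needed in the placenta, has a known maternal gDMR that the E7.5 rule did not reach. Its promoter window (chr6:4746871-4747642) read 0% in both matDKO/CAST libraries and 60.2%, 41.2% and 96.1% in B6/CAST.

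At windows with a paternal excess, found by the mirrored E7.5 rule and here called paternal DMRs, the groups overlapped. The rule does not show whether such a mark came from the sperm. The 4 windows of 3 loci averaged 59.2% and 35.1% in matDKO/CAST and 47.2%, 60.4% and 67.6% in B6/CAST, a difference of -11.2 points (exact permutation p = 0.4). Upstream of H19, the imprinted noncoding RNA whose control region insulates Igf2 on the maternal allele (chr7:142579326-142581760), methylation was 46.2% and 52.9% against 43.4%, 66.7% and 45.3%. In the neighbouring window over the H19 start (chr7:142577608-142579325) it was 61.9% and 45.5% against 43.4%, 70.6% and 56.2%. In the intergenic stretch of the Dlk1-Meg3 domain, at the start of Gm27528 (chr12:109529408-109533317), it was 81.0% and 56.2% against 70.5%, 60.7% and 79.4%. A window over a start of Gnas and a start of its antisense transcript Nespas (chr2:174285346-174286199) spread most, at 42.5% and 0% against 27.6%, 51.7% and 72.6%. In each of the 4 windows the higher matDKO/CAST library lay above at least 1 B6/CAST library, and that of Gnas and Nespas was near 0 only in replicate 3. The paternal mean rests on replicate 3: without it the difference turned to 0.80 points.

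**Figure D2:**
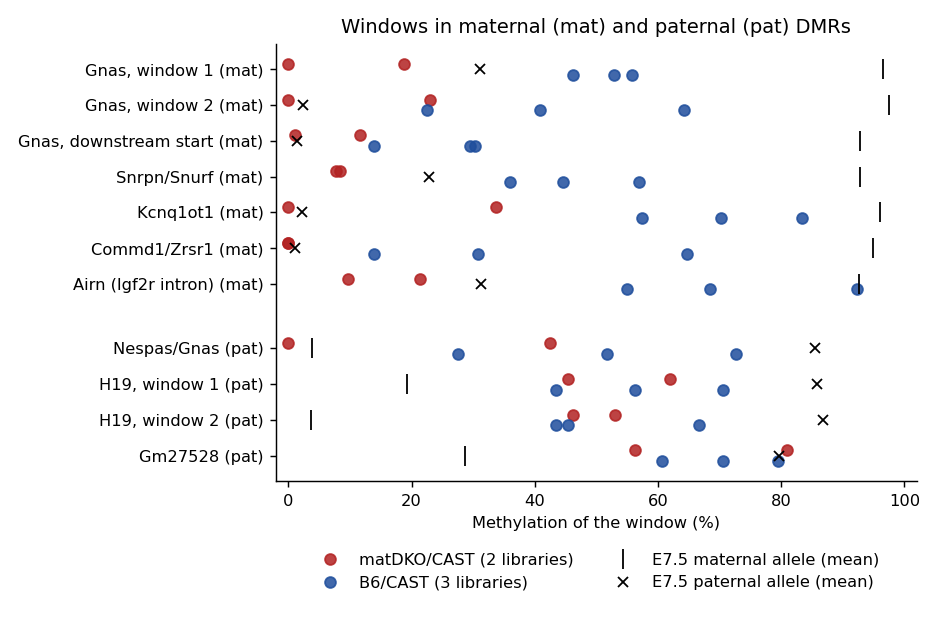
Methylation (horizontal axis, percent) of each window in a maternal gDMR (the 7 windows of the stricter rule) or paternal DMR, with 1 point per E6.5 epiblast library and, as marks, the mean of the maternal and of the paternal allele in E7.5 wild-type epiblast. At these 7 maternal windows the matDKO/CAST points lie at or below 33.7%, and at the paternal DMRs the points of the groups mix.

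The deficit was largest in the class with the strongest maternal excess. Windows were sorted by maternal minus paternal methylation in wild-type E7.5 epiblast, which the comparison does not use. The 7 windows with a maternal excess of at least 50 points are those of the maternal gDMR loci above, so this class restates that result. They were at 14.9% and 4.4% in matDKO/CAST and 54.9%, 52.8% and 39.3% in B6/CAST, so that 19.7% of the level was retained. The 19 windows with a maternal excess of 30 to 50 points were at 38.4% and 36.1% against 53.3%, 52.7% and 54.7%, or 69.5%. The 81344 windows whose alleles were within 5 points were at 56.4% and 54.8% against 67.6%, 72.7% and 76.1%, or 77.1%. With a paternal excess of 30 to 50 points, 11 windows kept 62.7% (33.1% and 23.6% against 40.4%, 45.3% and 50%). With a paternal excess of at least 50 points, 5 windows were at 47.8% and 37.6% against 46.3%, 58.9% and 62.0%, the only class of the 9 in which the groups overlapped. These 5 windows include those of the paternal DMRs above.

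**Figure D3:**
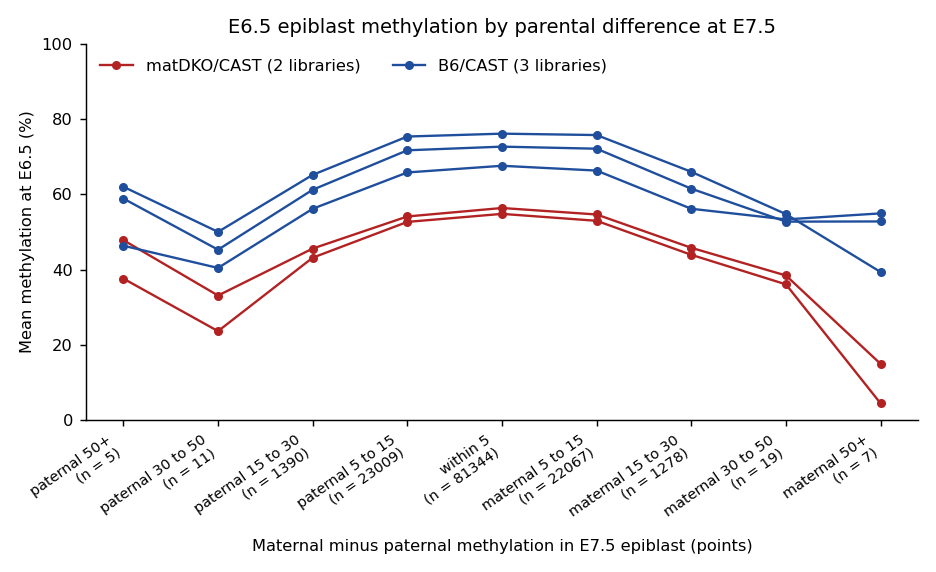
Mean E6.5 epiblast methylation (vertical axis, percent), 1 line per library, by class of maternal minus paternal methylation in wild-type E7.5 epiblast (horizontal axis, points). In the class with a maternal excess of at least 50 points the matDKO/CAST means are 14.9% and 4.4% and the B6/CAST means 54.9%, 52.8% and 39.3%.

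Away from imprinted loci, the share of the wild-type level that matDKO/CAST reached was lowest in CpG-poor DNA. In windows of 2 to 4 kb the library means were 56.6% and 54.6% in matDKO/CAST and 66.6%, 70.2% and 72.4% in B6/CAST, or 79.7% of the B6/CAST mean. In windows of 4 to 8 kb, the commonest length, they were 59.7% and 58.3% against 71.5%, 77.0% and 80.4%, or 77.4%. In windows of 14 kb or more they were 46.7% and 43.7% against 59.6%, 68.4% and 75.6%, or 66.7%. The difference grew with length, from -14.2 points at 2 to 4 kb to -17.2 at 4 to 8 kb, -20.3 at 8 to 14 kb and -22.6 at 14 kb or more. The groups separated in every class, each with an exact permutation p of 0.2, the smallest possible.

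CpG islands and other dense windows had little to lose. In the 8679 windows under 1 kb, the means were 2.90% and 2.66% in matDKO/CAST and 3.81%, 3.66% and 3.56% in B6/CAST, a difference of -0.89 points. In the 6418 windows of 1 to 2 kb, which hold island borders, they were 26.4% and 24.6% against 32.2%, 33.1% and 33.4% (-7.35 points). In the CpG-poor windows the deficit against denser DNA can be read within each library. Windows of 14 kb or more had 78.2% and 75% of the level of windows of 4 to 8 kb in matDKO/CAST, and 83.3%, 88.9% and 94.0% in B6/CAST. The same ratio was 96.0%, 97.0% and 99.0% in CAST/B6 epiblast, so it followed the library's mean methylation among the wild types too. The part of the overall level in this gradient was not tested.

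**Figure D4:**
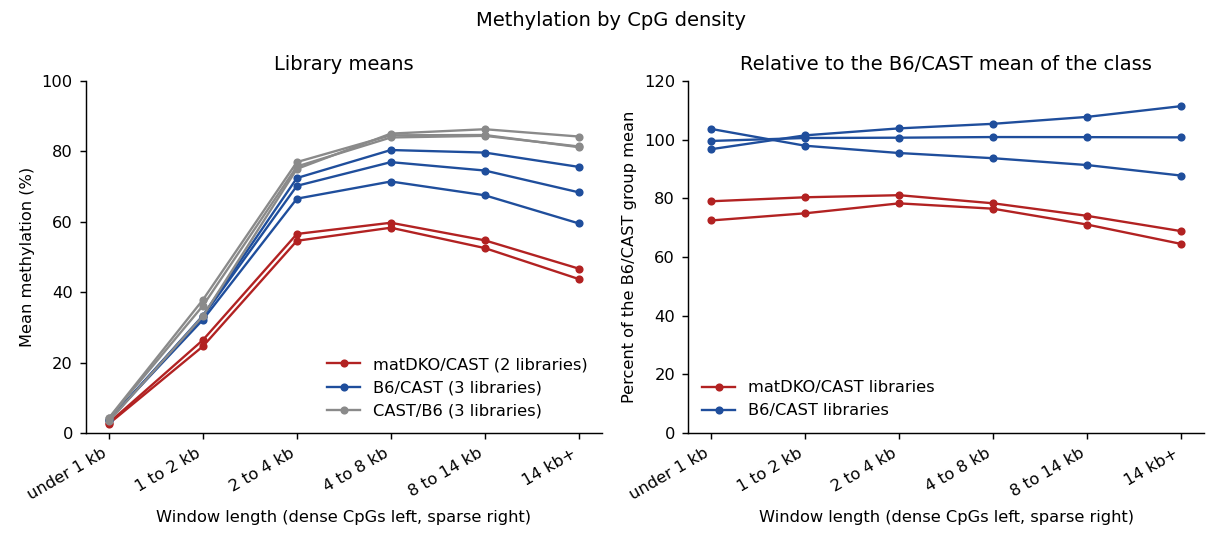
Left, mean methylation (percent) of each E6.5 epiblast library in 6 classes of window length, from CpG-dense on the left to CpG-poor on the right. Right, the matDKO/CAST and B6/CAST libraries as a percentage of the B6/CAST group mean of the class, where the matDKO/CAST group mean goes from 79.7% at 2 to 4 kb to 66.7% at 14 kb or more.

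Windows were also put into classes of 10 points by their mean in the CAST/B6 libraries, and matDKO/CAST had 70.3% to 80.3% of the B6/CAST level in each of them. The highest share was that of the 52376 windows at 90 to 100%, with 67.7% and 66.3% in matDKO/CAST against 79.6%, 83.8% and 86.8%. The 25353 windows at 70 to 80% had 50.4% and 47.9% against 62.2%, 69.2% and 74.0%, a share of 71.8%. Among windows at 80 to 90% in CAST/B6, the share still went from 78.9% at lengths of 2 to 4 kb to 76.3%, 71.8% and 67.1% in the 3 longer classes.

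By annotation, gene bodies were closer to wild type than intergenic DNA. The 80772 windows in gene bodies were at 57.7% and 56.1% in matDKO/CAST and 69.2%, 73.5% and 76.5% in B6/CAST (77.8%). The 86502 intergenic windows were at 53.2% and 51.3% against 64.7%, 71.6% and 76.2% (73.8%). Part of this went with window length, since intergenic windows were longer: at lengths of 4 to 8 kb the shares were 78.4% in gene bodies and 76.0% between genes, and at 14 kb or more they were 67.0% and 66.5%. The 29185 windows over the start of a protein-coding gene were at 43.1% and 41.5% against 51.4%, 54.5% and 56.6% (78.1%). All 19 autosomes were lower in matDKO/CAST with no overlap, from -15.3 points on chromosome 19 to -18.2 points on chromosome 3.

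To find regions that departed from the genome-wide shift, the mean of each library was subtracted and the remaining difference, here called the relative difference, was tested with limma. A region that lost exactly 16.6 points has a relative difference of 0, and a region that is unmethylated in both groups has a positive one, because it cannot lose what it did not have. No window had a Benjamini-Hochberg adjusted p below 0.05 in either direction (0% of 196459). At an unadjusted p below 0.05, 9423 windows were relatively higher (4.8%) and 11264 relatively lower (5.73%). The windows named next were those with the largest relative difference at an unadjusted p below 0.05, with no overlap between groups and at least 50% in CAST/B6, and each had an adjusted p of 0.42 (limma).

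Of the 5 lower windows, 3 lay in genes. In an intron of Acvr2b, an activin receptor gene (chr9:119416784-119418827), methylation was 11.8% and 14.3% in matDKO/CAST and 84.4%, 87.5% and 92.3% in B6/CAST. The window over the start of Ano2, a chloride channel gene (chr6:125710602-125713271), was at 10.7% and 33.3% against 88.4%, 100% and 90.6%. The start of Nespas nearest to the Gnas gDMRs (chr2:174295393-174296436) was at 13% and 0% against 69.3%, 86.7% and 81.8%. All B6/CAST libraries exceeded all matDKO/CAST libraries at these 3 places, as the choice of windows required.

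The other lower windows were intergenic. On chromosome 16, 296.6 kb from Rbfox1, a neuronal splicing factor gene (chr16:5582449-5595153), methylation was 7.14% and 22.7% against 73.0%, 92.5% and 92.1%. On chromosome 15, 301.8 kb from Khdrbs3, the nearest protein-coding gene, and 8118 bp from the start of the gene model Gm49414 (chr15:68619825-68633462), it was 14.3% and 18.4% against 80%, 96.7% and 82.7%. These windows spanned 12705 and 13638 bp, which is the CpG-poor end of the table.

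In the other direction, the window over the starts of Zfp934 and Zfp935, a pair of zinc finger genes (chr13:62556611-62558614), was at 85.5% and 100% in matDKO/CAST and 28.3%, 39.1% and 21.2% in B6/CAST. The CAST/B6 libraries were between the groups there, at 53.8%, 59.5% and 45.7%, and the relative difference was 79.8 points (SE 9.38). At the start of Gm2449 (chr9:119889743-119894850), the values were 76.3% and 80.8% against 50%, 0% and 49.1%. Spock1, which encodes a proteoglycan (chr13:57902858-57907573), was at 50% and 80% against 33.3%, 13.8% and 28.9%. Ptprn2 (an intron at chr12:117198372-117202861) was at 75% and 85.3% against 55.9%, 30% and 56.5%, and Spata24 (its start at chr18:35659620-35661967) at 82.8% and 90.9% against 63.4%, 65.8% and 28.9%. At Gm2449, Spock1, Ptprn2 and Spata24 at least 1 CAST/B6 library lay above a matDKO/CAST library, so that of these 5 windows only that of Zfp934/Zfp935 was above all 6 wild-type libraries.

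Windows with a high wild-type level were then described by what matDKO/CAST reached. Of 164281 windows with a CAST/B6 mean of at least 70%, the median window had 76.8% of its B6/CAST level, with 48.9% at the 5th percentile and 86.9% at the 75th. In 852 of them (0.519%), both matDKO/CAST libraries were below 30% and all B6/CAST libraries at or above 50%. These had a median length of 11497 bp, and 66.4% were intergenic, against 6121 bp and 47.4% for all high windows. At the other end, both matDKO/CAST libraries were at or above 80% in 5132 high windows (3.12%). These had a median length of 4386 bp, and 65.5% of them lay in gene bodies, against 42.5% of all high windows. Since the libraries chose these windows, the shares are a description with no test.

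Averaging over gene bodies reduced the noise of single windows. After subtraction of the library means, 1 of 10840 genes was relatively higher at an adjusted p below 0.05 (0.00923%) and none was relatively lower (0%). At an unadjusted p below 0.05, 1543 were relatively higher (14.2%) and fewer, 3.62%, relatively lower. With the spread estimated over all 8 epiblast libraries, 199 genes were relatively higher (1.84%) and 37 relatively lower (0.341%) at the adjusted threshold. On the scale of the deposited percentages, without the subtraction, 8313 genes were lower (76.7%). The gene that passed was Zfp518a, a zinc finger gene (chr19:40894705-40917947, 3 windows), at 51.6% and 49.1% in matDKO/CAST and 31.8%, 36.4% and 43.9% in B6/CAST. Its relative difference was 29.6 points (SE 3.53, limma adjusted p = 0.018), and its CAST/B6 mean of 51.3% was close to the matDKO/CAST values. The call was lost without B6/CAST replicate 1 (adjusted p = 0.079), without the unnumbered B6/CAST library (0.17) and within classes of CpG density (0.14). Division by the library mean (0.11) and the replicate block (0.40) lost it too. Over the limma alternatives that kept both matDKO/CAST libraries, the adjusted p ranged from 0.0069 to 0.40. Zfp518a was also 1 of the 17 genes in which both matDKO/CAST libraries exceeded all B6/CAST libraries. Of the 17, 10 were below 20% in all 5 libraries, such as Foxd1, a developmental transcription factor gene at 1.59% and 1.27% against 0.81%, 0% and 0.45%. Cdkn1c, an imprinted cell cycle inhibitor, was among them, at 17.1% and 15% against 12.5%, 13.1% and 8.29%. These genes were picked out after their values were seen.

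The genes with the lowest relative difference, all with a limma adjusted p between 0.075 and 0.097, kept 40.1% to 55.1% of the B6/CAST level. Lrrtm3, which encodes a synaptic adhesion protein (6 windows), was at 36.5% and 21.5% in matDKO/CAST and 64.9%, 72.9% and 79.0% in B6/CAST. Its relative difference was -26.7 points (SE 4.32). Myh1, a muscle myosin gene, was at 48.1% and 33.9% against 74.3%, 82.2% and 89.5%. Fcrl1, a B cell receptor-like gene, was at 30.5% and 42.8% against 66.1%, 85.5% and 78.2%.

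Further genes of this list are given with their known roles. Col9a1, a cartilage collagen gene, was at 44.6% and 26.3% against 58.9%, 80.7% and 76.6%. Pdilt, a testis protein disulfide isomerase gene, was at 38.1% and 28.2% against 60.8%, 70.1% and 76.5%. Sla, a Src-like adaptor gene of lymphocytes, was at 45.4% and 39.2% against 69.5%, 78.2% and 86.5%. Dhrs9, Fndc7, Cfap221, Opn5, Tcam1, Mdh1b, Zc3h6 and Gm49393 had relative differences between -22.2 and -19.2 points. Pigo, an enzyme of GPI anchor synthesis used in most cells, was at 35.4% and 41.7% against 78.8%, 67.2% and 78.3%. As the choice of these genes required, every B6/CAST library was above every matDKO/CAST library in each of them. All but Lrrtm3 rested on 3 or 4 windows.

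With at least 10 windows a gene, 2959 genes could be tested, and 24 were relatively higher (0.811%) and 26 relatively lower (0.879%) at a limma adjusted p below 0.05. Of the 24, 15 had under 50% methylation in CAST/B6, among them Hoxa3, Hoxc5, Zic4 and Lhx2, for which a positive relative difference is fixed by their low level. The 26 had a median length of 355 kb and a median window length of 10104 bp, with exceptions such as Rimbp2, whose windows averaged 4870 bp. Their products were of several kinds, with examples picked after their values were seen: Cntnap2 and Grm8 encode a neuronal adhesion protein and a glutamate receptor, Ccl1 a chemokine, Socs6 a suppressor of cytokine signalling, and Spag16 and Spag17 proteins of the sperm tail.

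The range of recovery can be given for genes that are methylated in the wild type. For the 2625 genes with at least 10 windows and a CAST/B6 mean of at least 70%, matDKO/CAST had between 53.1% and 94.3% of the B6/CAST level, with a median of 79.0%. The lowest and highest named here were picked after their values were seen. Cobl, an actin nucleator gene, was at 37.9% and 27.7% in matDKO/CAST and 55.9%, 63.0% and 66.3% in B6/CAST. Map2, which encodes a dendritic microtubule protein, was at 36.1% and 38.6% against 64.7%, 70.2% and 70%. Cntnap2, a neuronal adhesion gene of 2245 kb with 53 windows, was at 38.1% and 37.5% against 56.1%, 67.3% and 76.0%. The matDKO/CAST libraries agreed on these genes within about 10 points, well below each B6/CAST library.

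Other genes were close to wild type. D10Wsu102e (18 windows) was at 79.7% and 79.5% in matDKO/CAST against 82.2%, 84.5% and 86.5%, the highest share of the 2625. Camk2g, a calcium-dependent kinase gene, was at 71.9% and 64.2% against 72.9%, 69.2% and 75.1%, with overlap between the groups. Setd7, a lysine methyltransferase gene, was at 74.0% and 74.9% against 75.6%, 83.8% and 82.8%. Dip2c was an exception among long genes, since its 22 windows averaged 9916 bp and it was still at 69.2% and 68.9% against 69.9%, 75.7% and 79.7%. The genes of the lowest 10% had a median length of 361 kb and windows of 8980 bp, and those of the highest 10% 89.1 kb and 4260 bp.

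**Figure D5:**
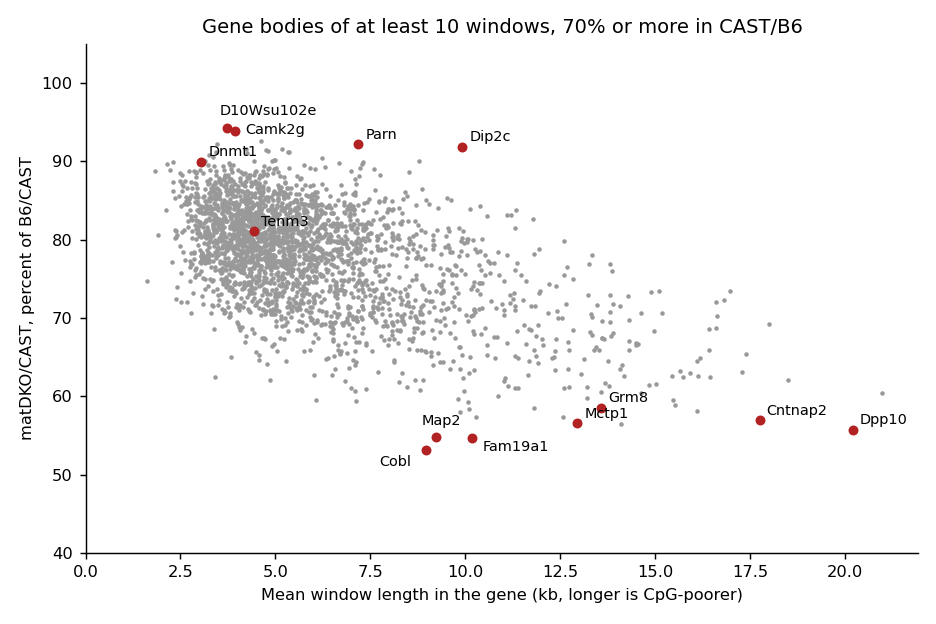
matDKO/CAST methylation as a percentage of B6/CAST (vertical axis, which starts at 40) against mean window length in the gene (horizontal axis, kb), with 1 point for each of 2625 gene bodies and some genes in red by name. The range is 53.1% for Cobl to 94.3% for D10Wsu102e, and genes with long windows, such as Cntnap2 and Dpp10, lie low.

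Along chromosomes, all 2298 bins of 1 Mb were lower in matDKO/CAST on the deposited scale at a limma adjusted p below 0.05 (100%). Relative to the library means no bin passed (0% in each direction), with 148 relatively higher (6.44%) and 413 relatively lower (18%) at an unadjusted p below 0.05. With all 8 epiblast libraries 22 bins were relatively higher (0.957%) and 143 relatively lower (6.22%) at the adjusted threshold. The bins named next were chosen at that unadjusted threshold, with no overlap between groups after the subtraction, and had adjusted p-values of 0.11 to 0.14. The lower ones were gene-poor. The bin at 120 Mb of chromosome 3 (chr3:120000000-120999999), with no protein-coding gene, was at 39.7% and 45.1% in matDKO/CAST and 60.6%, 75.8% and 80.7% in B6/CAST. The bin at 46 Mb of chromosome 6, inside Cntnap2, was at 39.5% and 33.0% against 56.0%, 64.8% and 73.7%. The bin at 27 Mb of chromosome 6, inside Grm8, a glutamate receptor gene, was at 45.3% and 39.0% against 60.8%, 72.5% and 79.4%.

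The same groups separated at 139 Mb of chromosome 3, over Stpg2 and Rap1gds1, with 39.1% and 41.8% against 63.0%, 69.8% and 73.9%. At 143 Mb of that chromosome they separated with 42.8% and 43.4% against 63.1%, 73.2% and 78.6%. Of the relatively higher bins, 4 held 36 to 49 protein-coding genes, and that of chromosome 2 held 9. The bin of chromosome 15 over part of the Hoxc cluster (chr15:102000000-102999999), with 38 protein-coding genes that include Hoxc5, Atf7 and Sp1, was at 40.3% and 38.4% against 46.3%, 50.7% and 51.6%. The bins at 18 Mb of chromosome 2, 81 Mb of chromosome 10, 120 Mb of chromosome 11 and 88 Mb of chromosome 3 had relative differences of 6.13, 5.96, 5.82 and 5.77 points. In each of these 5 bins matDKO/CAST was below every B6/CAST library, by less than the genome-wide shift.

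Gene families were described by how many members had an unadjusted limma p below 0.05, beside 14.2% relatively higher and 3.62% relatively lower among all gene bodies and 8.88% and 2.98% among all windows over gene starts. In that fit over all gene bodies or all windows of the 5 libraries, no member of a list passed the adjusted threshold except Zfp518a, while some passed among genes of at least 10 windows (Hoxa3, Hoxc5 and Dpp10) or with all 8 epiblast libraries (Cntnap5a, Dlx1 and Hoxc4). Long neuronal genes, which are rich in CpG-poor introns, were relatively low. All 40 of them were lower in matDKO/CAST with no overlap (86.2% of all gene bodies were), 8 had a p below 0.05 in the lower direction and none in the higher. Their median levels were 46.1% and 42.4% in matDKO/CAST and 58.6%, 66.5% and 74.2% in B6/CAST. The median relative difference was -4.96 points, against 2.37 points for all genes, and it was -0.50 points when windows were compared with others of the same length.

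Members of this list differed widely. Cntnap5a, a neuronal adhesion gene, was at 30.1% and 40.4% against 62.5%, 68.4% and 75.5%. Tenm3, a teneurin gene with shorter windows, was at 66.0% and 61.9% against 72.0%, 80.3% and 84.5%. Pcdh7 was at 42.6% and 30.5% against 47.4%, 51.2% and 49.5%. A start of Pcdh15, which is needed in hair cells, was at 32.3% and 22.2% against 72.0%, 89.0% and 83.8%. At the other end, a start of Thsd7b was at 62.5% and 55% against 47%, 61.5% and 56.2%, with overlap between the groups.

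Olfactory receptor genes lie in CpG-poor clusters and are silent outside the nose. Of their 614 start windows, 79 had a p below 0.05 in the lower direction and 12 in the higher, and in 340 the groups did not overlap, with matDKO/CAST lower (40.1% of all start windows did so). Median levels were 45.8% and 45.5% against 60.9%, 69.2% and 76.2%, with a median relative difference of -5.45 points, against 5.81 points for all start windows and -0.68 points among windows of the same length. The window shared by Olfr1388 and Olfr1389 was at 25% and 15.6% against 80%, 100% and 80%. Olfr1123 was at 21.9% and 22.2% against 65%, 78.8% and 78.6%, and Olfr1461 went the other way, at 54.0% and 81.2% against 52.6%, 37.5% and 62.5%.

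Of the 158 start windows of vomeronasal receptor genes, 17 were in the lower direction and none in the higher. The median relative difference was -3.84 points, and it turned to 0.22 points among windows of the same length. Vmn1r11 was at 10.5% and 10.0% against 71.6%, 48.1% and 64.7%, whereas Vmn2r23 was at 76.9% and 68.9% against 42.5%, 88.9% and 68.0%, with overlap. Among the 17 start windows of the placental prolactin and pregnancy-specific glycoprotein genes, 3 were in the lower direction and none in the higher. Psg23 was at 29.2% and 15.4% against 54.3%, 63.0% and 77.9%, and Prl6a1 at 55.6% and 46.2% against 51.8%, 54.5% and 66.7%. The list's median relative difference was -10.7 points, and -4.66 points among windows of the same length.

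Developmental regulators and Hox genes have CpG islands, which the epiblast mostly keeps free of methylation. The 46 regulators had median gene body levels of 6.20% and 8.04% in matDKO/CAST and 11.1%, 10.3% and 6.0% in B6/CAST. Some members were methylated, such as Wnt3, which encodes a signalling ligand of gastrulation, at 39.5% and 42.1% against 53.3%, 61.4% and 58.3%. Of the 46, 36 had a p below 0.05 in the relatively higher direction, and so had all 17 Hox genes, a direction that a low level in both groups fixes on this scale. On the deposited scale members went both ways. The start of Dlx1, a homeobox gene of the forebrain, was at 23.1% and 31.2% against 5.73%, 3.57% and 8.75%. The gene body of Hoxc4 was at 28.5% and 19.4% against 15.5%, 17.7% and 13.8%, and the start of Tbx4, a limb gene, at 24.1% and 50.9% against 22.7%, 32.9% and 6.06%. The groups did not overlap at Dlx1 and Hoxc4 and overlapped at Tbx4. In the other direction, a start of Hoxc6 was at 0% in both matDKO/CAST libraries against 9.65%, 10.0% and 10.2%, and a start of Pax6, an eye homeobox gene, at 3.85% and 0% against 37.7%, 7.35% and 31.6%. At this Pax6 start the CAST/B6 libraries were as low as matDKO/CAST, at 0%, 0.80% and 2.17%. The limma adjusted p was 0.42 for the Dlx1 window and 0.075 for Hoxc4.

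Of 15 pluripotency gene bodies, 5 were in the higher direction and 2 in the lower at an unadjusted p below 0.05. The median relative difference was 5.71 points and turned to -3.46 percent of the mean after division by the library mean. Those in the higher direction included Pou3f1 and Foxd3, which were below 7% in all 5 libraries. Dppa2, a gene of pluripotent cells, was at 63.7% and 41.4% against 78.7%, 77.6% and 86.4%, and Tfcp2l1, a naive pluripotency factor gene, at 61.1% and 54.6% against 79.9%, 78.4% and 91.5%. A start of Esrrb was at 59.3% and 57.1% against 82.8%, 96.2% and 97.1%. Of 19 trophoblast gene bodies, 12 were in the higher direction and none in the lower, with median levels of 32.1% and 31.0% against 31.2%, 35.6% and 35.1%. Their median relative difference was 11.4 points, against 2.37 points for all gene bodies. After division by the library mean it was 4.84 percent of the mean, against 3.73 for all gene bodies. At the start of Cdx2, the trophectoderm homeobox gene, methylation was 6.25% and 40% against 5.56%, 9.52% and 2.44%, so that the difference rested on replicate 3.

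Germline genes, many of which are silenced by methylation of CpG-rich promoters around implantation, were near the genome-wide shift. None of 20 gene bodies had a p below 0.05, and their median relative difference was -1.02 points. Sycp1, of the meiotic synaptonemal complex, was at 43.1% and 48.0% against 62.5%, 68.4% and 79.5%, and Spo11, which makes meiotic breaks, at 51.5% and 55.6% against 53.1%, 67.3% and 74.8%. Their start windows were at median levels of 43.2% and 43.1% against 56.8%, 61.8% and 63.7%. Of 11 gene bodies of genes expressed in the oocyte, 1 was in each direction. Kpna7, an importin gene of the oocyte, was at 48.9% and 50.8% against 68.1%, 81.5% and 77.1%, and Padi6, of the oocyte lattices, at 69.8% and 72.0% against 75.5%, 77.6% and 85%.

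Of 18 gene bodies of the methylation machinery, 3 were in the higher direction and none in the lower. Uhrf1, which recruits DNMT1 to replicated DNA, was at 56.0% and 52.5% against 60.0%, 59.5% and 57.2%, and Tdg, a glycosylase of active demethylation, at 54.6% and 55.4% against 63.7%, 61.1% and 56.8%. Dnmt3l, the cofactor of DNMT3A in germ cells, was at 51.9% and 55.0% against 71.1%, 71.2% and 81.4%, and Setdb1, a histone H3K9 methyltransferase gene, at 72.2% and 70.4% against 86.8%, 89.4% and 87.8%. Of 23 housekeeping gene bodies, 5 were in the higher direction and 1 in the lower, the latter being Kpnb1 at 67.4% and 61.4% against 85.9%, 90.9% and 90.2%. The non-canonically imprinted genes, which the study chose on embryos of the same crosses, had 6 gene bodies with a value, of which 1 was in the higher direction and none in the lower. The gene bodies at the ends of that list were Sall1, at 50.9% and 43.9% against 52.9%, 54.5% and 59.9%, and Smoc1, at 57.1% and 66.3% against 73.4%, 80% and 84.3%. Of its start windows the lowest was one of Jade1, a subunit gene of a histone acetyltransferase complex (chr3:41560255-41563464), at 23.4% and 5.56% against 30%, 85% and 58.6% (relative difference -26.8 points, SE 12.7, limma adjusted p = 0.46).

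Many zinc finger genes lie in clusters of recent origin, and the list here was made by name alone. Of 163 gene bodies with a symbol beginning with Zfp, 34 were in the higher direction and 5 in the lower. Of 465 start windows, 59 were in the higher direction and 15 in the lower, with a median relative difference of 7.94 points, against 5.81 points for all start windows. Zfp708 varied within the groups, at 93.8% and 45.5% against 40.4%, 57.8% and 28.0%. Zfp444 was at 33.3% and 44.8% against 84.8%, 84.4% and 88.5%, and Zfp59 at 54.5% and 43.8% against 90.1%, 100% and 96.8%. Of 32 clustered protocadherin gene bodies, which overlap each other and share windows, 18 were in the higher direction and none in the lower. The direction holds for the subtracted scale: the median relative difference was 8.63 points, but -4.59 percent of the mean when values were divided by the library mean, since low levels favour a positive value after subtraction. All 32 were lower in matDKO/CAST with no overlap on the deposited scale, as were 86.2% of all gene bodies. Pcdha12 was at 31.8% and 33.4% against 46.5%, 54.4% and 52.6%, and Pcdhga6 at 18.2% and 14.8% against 22.4%, 23.1% and 22.4%.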

How the data were processed

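Methylation was measured by PBAT in the libraries described above. After trimming and Bismark alignment to GRCm38, the table deposited by the authors gives percent methylation in windows of 100 CpG positions. Coverage is not part of the table, so the depth is unknown and values carry no binomial interval. The submitters' processing notes name Trim Galore 0.4.4 and Bismark 0.20.0. The authors left out a matDKO/CAST epiblast replicate for poor alignment, and gave matDKO/CAST reads extra alignment steps for 129 alleles. Whether the deposited percentages include those steps is not given in the sources used here. For 1 B6/CAST column the name showed the group but not which labelled sample it was, and its heading calls it a reimport. That heading also carries a replicate number that matches none of the group's labels, so the column is here called the unnumbered B6/CAST library. E7.5 allelic percentages, also deposited, came from single wild-type embryos.

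Autosomal windows with a value in all 5 libraries were used. Library means were compared by two-sided exact permutation tests. Windows, gene bodies (at least 3 windows) and 1 Mb bins (at least 20 windows) were fitted with limma 3.58.1 (R 4.3.3) to percentages minus the library mean, with Benjamini-Hochberg adjustment and a threshold of 0.05. The fit was tested on simulated data, drawn as independent normal values with the spread that limma itself had estimated and with 200 changed features. There limma recovered 160 windows at 50 points with 14 false calls, 184 genes at 20 points with 9, and 195 bins at 10 points with 6. Since the spread came from the fit under test, these counts do not show the power for the deposited percentages. Genes and exons came from GENCODE M21, and sequences from GRCm38.p6. Permutation tests used scipy 1.17.1 and figures matplotlib 3.10.9, under Python 3.11.15. Named were up to 5 windows and bins and 15 genes in each direction with the largest relative difference and no overlap between groups, at an adjusted p below 0.05 or, where none passed, an unadjusted one. Windows needed at least 50% in CAST/B6, and those within 50 kb were counted once. Named as well were all maternal gDMR and paternal DMR loci, the members of each list at its ends, Dnmt3a and Dnmt3b. The members, lists and rules were chosen with earlier results of these data known. The alternatives tried were no centring, division by the library mean, eBayes settings, all 8 epiblast libraries, a replicate block, a logit scale, windows in all 15 E6.5 libraries, a minimum difference, 10 windows a gene, 5 Mb bins, length weighting, medians, CAST/B6 in the wild type, the gDMR rules, leaving out each library, and centring within classes of CpG density, the last and a looser gDMR rule chosen after the data were seen. ChIP-seq and RNA-seq were not analysed here.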

Additional observations from a re-analysis of the deposited data

How the results depend on the processing

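The direction of the mean difference held under every alternative run, from -14.5 points with the replicate block to -20.9 points with CAST/B6 added to the wild type, and that of the maternal gDMRs held from -23.2 points with the library mean subtracted to -44.6 points. The paternal DMRs went from -23.2 to 0.80 points when each library was left out, and to 5.39 points with the library mean subtracted. Divided by the library mean, the difference turned positive in windows of 1 to 2 kb (0.89), 2 to 4 kb (4.74) and 4 to 8 kb (1.96 percent of the mean). These turns follow from the construction, since a class that kept a larger share of its level than the genome did is then relatively higher.

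Counts at an adjusted p below 0.05 depended on the fit. For windows they were 2 with trended and robust eBayes, and 0 to 678 when libraries were left out, with 678 without matDKO/CAST replicate 1 (203 higher, 475 lower) and 4 without matDKO/CAST replicate 3. For genes they were 8314 without centring, 0 after division by the library mean, 0 when centred within CpG density, 236 with all 8 libraries (199 higher, 1.84%, and 37 lower, 0.341%), 50 with at least 10 windows, and 0 to 269 when libraries were left out. The gene counts were 269 without matDKO/CAST replicate 1 (194 higher, 75 lower), 86 without replicate 3, 5 without B6/CAST replicate 3, and 0 without B6/CAST replicate 1 or the unnumbered library. A lone matDKO/CAST library was assumed to vary like the B6/CAST libraries. For bins they were 2298 without centring, 165 with all 8 libraries (22 higher, 0.957%, and 143 lower, 6.22%), and 0 to 87, with 87 without B6/CAST replicate 1, all lower. The relatively higher bins turned negative without centring, to -10.2 at chromosome 15, -10.5 at chromosome 2, -10.6 at chromosome 10, -10.8 at chromosome 11 and -10.8 at chromosome 3.

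Replicates 1 and 3 of the groups share a number, and whether they also shared a preparation was not tested. The difference of replicate 1 minus replicate 3 correlated between the groups at 0.00 over windows and -0.12 over bins. The replicate block gave 30 windows (16 higher, 14 lower), 0 genes and 0 bins, and paternal DMR and maternal gDMR differences of -6.60 and -44.4 points. The cause of the changes in counts was not tested.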

Other observations

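Against all 6 wild-type epiblast libraries, with CAST/B6 included, departures were nearly all in the lower direction. Among the 192419 windows with a value in all 8 libraries, both matDKO/CAST libraries lay below all 6 in 91042 (47.3%) and above all 6 in 318 (0.165%). They lay below by at least 40 points in 434 windows (0.226%), spread over 19 chromosomes, with a median length of 7936 bp. Of these, 37.3% were in gene bodies and 55.8% between genes. The windows named next were picked from these after their values were seen, and the limma adjusted p was 0.42 for each. An intron of Runx2, the master transcription factor gene of bone (chr17:44695769-44700624), had the largest gap, at 10.0% and 9.09% in matDKO/CAST and 75.9%, 81.2% and 78.6% in B6/CAST. A window over an exon of Vxn (chr1:9609593-9613588) was at 15% and 14.3% against 76.8%, 79.5% and 77.8%. A window of Lgr5, a stem cell receptor gene (chr10:115567971-115573681), was at 26.5% and 22.5% against 84.8%, 86.7% and 85.1%, and an intron of Hdac9, a histone deacetylase gene (chr12:34509061-34518634), at 22.2% and 10.0% against 79.4%, 81.8% and 79.2%.

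Both matDKO/CAST libraries were above all 6 wild types by at least 15 points in 2 windows. Besides the start of Zfp934 and Zfp935, this was the start of Oxct2b, a testis gene inside Bmp8b (chr4:123115184-123116637), at 48.4% and 45.0% against 23.8%, 17.7% and 24.5% in B6/CAST and 7.69%, 15% and 27.3% in CAST/B6. At E7.5 the same window was at 58.2% in wild-type epiblast, above the matDKO/CAST values at E6.5.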
